A study of Mus musculus with 12 samples.

Results

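Cells labelled as astrocytes, and called so below, were compared between 7 and 3 days after an ischemic stroke, over all genes of the deposited count table. The comparison takes the 2 day 7 libraries and the 2 day 3 libraries. Every one of the 15774 genes of the table belongs to it, and 15635 had enough counts to be tested. All mice were wild type on the C57BL/6J background, and their age and sex are not given in the labels. The cells were sorted by fluorescence (FACS) from the cerebral cortex and total RNA was sequenced. In the stroke mice the distal middle cerebral artery was tied off for good and both common carotid arteries were closed for 7 min. Sham mice received only a lesion of the skull surface and enter the text as a reference level. The series holds 12 libraries, 2 each for sham and for days 1, 3, 7, 21 and 60. The labels state neither the marker of the sort nor whether replicates came from separate or pooled animals, so p-values measure only the spread between these libraries.

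Astrocytes are the glial cells that supply neurons with metabolites, clear glutamate and potassium, and cover blood vessels with their endfeet. After a stroke they become reactive. They divide, thicken their intermediate filaments, of which GFAP is the best known, and wall off the dead tissue as a glial scar. Inside that border a fibrotic scar forms, for which fibroblasts of the meninges and vessels are known to lay down collagen and other matrix, while neutrophils, monocytes and microglia enter and clear debris. The step from day 3 to day 7 lies between the early inflammatory and proliferative phase and the phase in which scars form.

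Levels are CPM, the counts of a gene relative to the library's total, scaled between libraries with TMM factors, and are given for replicate 1 and then replicate 2. Replicate 1 of each group held 13006008 to 16575045 counts and replicate 2 held 97056596 to 156128922, so the second replicate was far deeper everywhere. Replicates agreed less well at day 3 (correlation of log2 CPM 0.879 across genes) than at day 7 (0.939), and libraries of different days correlated at 0.851 to 0.906. Genes that define astrocytes took 0.662% and 1.16% of the counts at day 3 and 0.288% and 0.174% at day 7, against 1.32% and 1.07% in sham. Markers of meningeal and mesenchymal fibroblasts took 0.222% and 0.680% at day 3 and 2.75% and 6.13% at day 7, against 0.00898% and 0.00801% in sham. The collagen gene Col1a1 made up most of that share in the day 7 libraries and in day 3 replicate 2. It was the smaller part in day 3 replicate 1 and in sham. The other 16 markers took 0.152% and 0.211% at day 3 and 0.356% and 0.216% at day 7, against 0.008235% and 0.007549% in sham. Activated phagocyte genes took 6.14% and 4.50% at day 3 and 8.06% and 5.11% at day 7, against 0.852% and 0.540% in sham. Oligodendrocyte markers took 0.195% and 0.181% at day 3 and 0.0962% and 0.0454% at day 7, against 1.05% and 0.914% in sham. The astrocyte genes were thus present in every library, beside markers of other cell types. The 95% Wilson intervals of these shares, which cover counting error only, were at most 0.014 percentage points to either side. In such bulk samples more cells of a type and more RNA per cell cannot be told apart.

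From day 3 to day 7 the levels of 983 genes changed, which is 6.29% of those tested. The test was edgeR's quasi-likelihood test on all 12 libraries, and a gene passed with an adjusted p (Benjamini-Hochberg, over all genes tested) under 0.05. Of these, 479 rose (3.06% of the genes tested) and 504 fell (3.22%), and the median log2 fold change of all genes was -0.03. In all 983 the day 7 libraries lay on 1 side of both day 3 libraries, as they did for 52.7% of all genes tested. Both replicate pairs then move the same way too, as they did for 11221 of the 15635 genes tested. The calls depended on single libraries. Without day 7 replicate 1 a single gene still passed (Crabp1, a fall) and 2538 had an unadjusted p under 0.05, and without day 7 replicate 2 the numbers were 0 and 2494. A fit of the 4 libraries alone also left 0 genes past the threshold, with 3243 at an unadjusted p under 0.05. Leaving out day 3 replicate 1 left 139 calls, and leaving out day 3 replicate 2, day 21 replicate 1, day 21 replicate 2 or sham replicate 1 left 592, 430, 536 and 649. All 983 genes kept their direction in each of these fits. With the replicate number as a block 2853 genes passed, 1450 that rose (9.27%) and 1403 that fell (8.97%). Blocked values stand below beside the counts they move by over 1.5 times and beside calls they change in the genes named without a call.

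**Figure D1:**
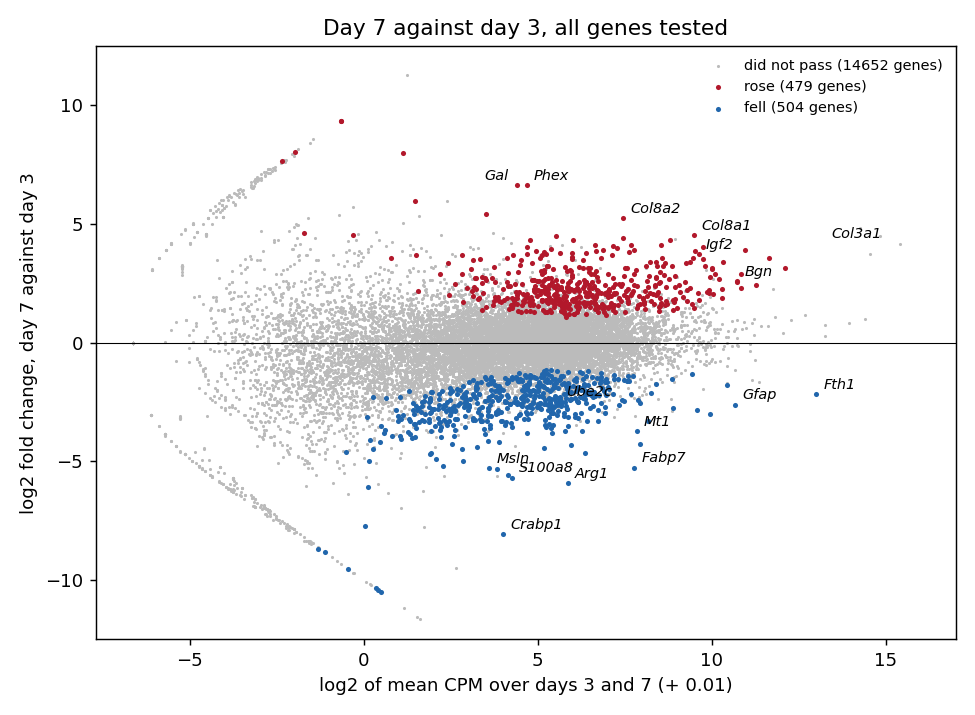
Each point is 1 of the 15635 genes tested, with the log2 of its mean CPM over days 3 and 7 on the horizontal axis and its log2 fold change of day 7 against day 3 on the vertical axis; red points are the 479 genes that rose and blue points the 504 that fell. The oblique streaks at the left are genes with 0 counts in one group, and the collagen gene Col3a1 lies at the far right, among the most abundant genes, but in grey because it did not pass.

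Changes also followed the length of the transcript. Of 768 tested genes with a transcript of at most 1000 bases, 146 fell and 2 rose, and their median log2 fold change was -1.28. Of 2692 genes with over 4500 and up to 7000 bases, 36 fell and 150 rose, with a median of 0.34. Both replicate pairs showed it, with medians of -1.30 and -1.09 for the shortest class. Over 14979 genes with a known length the rank correlation of length and fold change was 0.29, a description across genes, which are not independent. In single libraries the correlation of length with the deviation from the mean of all libraries was -0.12 and -0.32 at day 3 and 0.22 and 0.08 at day 7. Its part in the calls was not tested. The fit was repeated with offsets that remove each library's trend with transcript length and GC content, an alternative chosen after seeing the data. It left 245 genes that rose (1.57%) and 247 that fell (1.58%), 444 of them among the 983. It is called the length-adjusted fit below, and its values are given beside the groups and calls it changes.

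**Figure D2:**
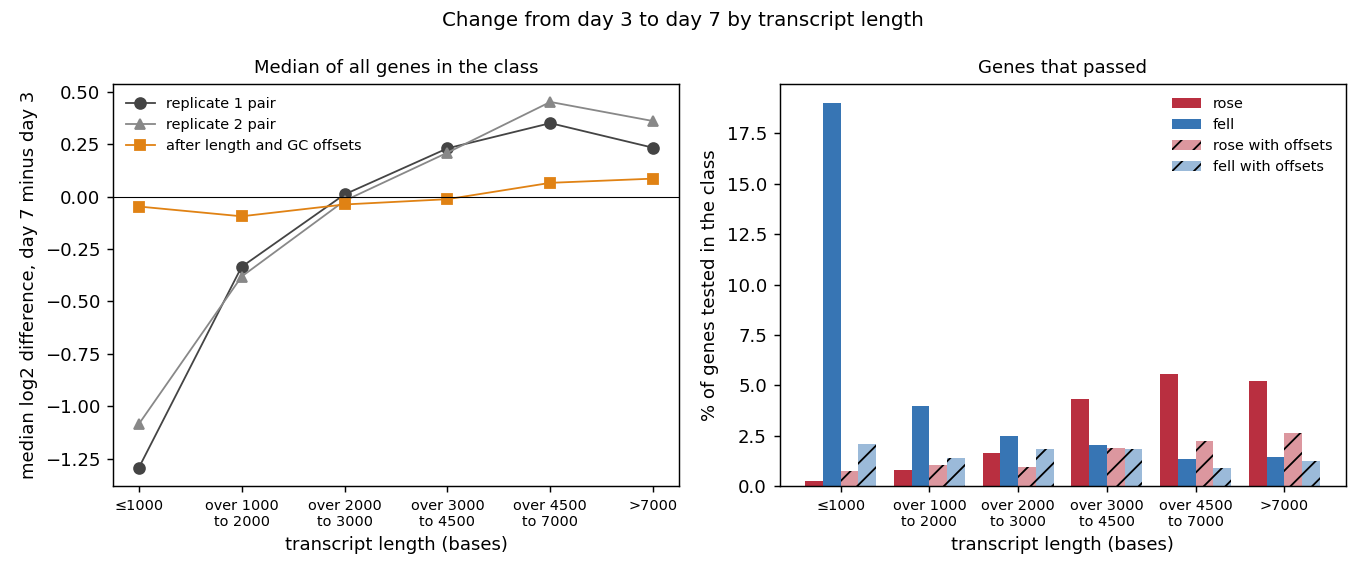
The left panel plots the median log2 difference of day 7 minus day 3 for 6 classes of transcript length, for the replicate 1 pair, the replicate 2 pair and the length-adjusted fit; the right panel gives the percent of genes in each class that rose or fell, with hatched bars for the length-adjusted fit. The shortest class lies at -1.30 and -1.09 in the replicate pairs and at -0.05 after adjustment, where 16 of its genes fell in place of 146.

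Collagen genes had the highest median fold change of the 52 lists examined, and their transcripts took up to 22.6% of the counts of a day 7 library. The 44 collagen chain genes of the table took 0.766% and 2.25% of all counts at day 3 and 9.76% and 22.6% at day 7, a gain in both replicates, against 0.0163% and 0.0285% in sham. All 44 were tested. Of these 20 rose, none fell, and 41 had a positive fold change, with a median of 3.16 on the log2 scale. With the block 27 of the 44 rose, and in the length-adjusted fit 8 rose and the median was 2.56. In a list of 20 collagens fixed for this report 16 rose (the other 4 had positive fold changes too), and the median was 3.84. With the block 19 of the 20 passed. In the length-adjusted fit 6 passed and the median was 3.27. Collagen messages are long, with a median of 6024.5 bases in this list.

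The fibrillar collagens I and III, which give scars their tensile strength, were the most abundant members, and their replicates lay far apart. Col1a1 (ENSMUSG00000001506.10, chr11:94936224-94953042), the main chain of collagen I, stood at 571 and 4395 CPM at day 3 and at 26348 and 85889 CPM at day 7. Replicate 2 was above replicate 1 at both times and the days did not overlap. Its log2 fold change of 4.50 ± 1.42 (SE) had an adjusted p of 0.0881, and 0.00863 with the block. Col3a1 (ENSMUSG00000026043.18, chr1:45311538-45349706) read 1620.1 and 7576 CPM at day 3 and 35731 and 129462 at day 7, with a log2 fold change of 4.17 ± 1.12 and an adjusted p of 0.0567 (0.00240 with the block). Per kilobase of transcript the mean level of Col3a1 at day 7 was 14845 CPM and that of Col1a1 9463. Col1a2, which joins Col1a1 in the triple helix, did not pass either (log2 fold change 3.74 ± 1.06, adjusted p = 0.0638, 0.00165 with the block). These 3 chains had large fold changes with standard errors above 1 on the log2 scale.

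In several network, basement membrane and filament collagens the replicates lay closer together. Col8a1 (ENSMUSG00000068196.5, chr16:57624258-57754737) and Col8a2 (ENSMUSG00000056174.8, chr4:126286793-126314330) encode the short chains of collagen VIII, a network collagen of vessel walls. Col8a1 went from 48.9 and 71.2 CPM to 1606 and 1168 CPM, a log2 fold change of 4.53 ± 0.46 (adjusted p = 0.00788). Col8a2 went from 4.11 and 13.9 CPM to 424 and 263 CPM, a log2 fold change of 5.24 ± 0.68 (adjusted p = 0.00994). Both passed in the length-adjusted fit as well, with log2 fold changes of 4.29 and 4.59. Col6a3, the long chain of the beaded filament collagen VI, was at 25.9 and 56.3 CPM at day 3 and at 649.7 and 770.0 CPM at day 7 (4.11 ± 0.46 on the log2 scale, adjusted p = 0.00811). The basement membrane chain Col4a5 showed 21.2 and 62.2 CPM and then 596 and 1084 CPM (log2 fold change 4.33 ± 0.66). For these 4 genes both day 7 libraries lay far above both day 3 libraries. The minor fibrillar chain Col11a1 (4.10 ± 0.89) and the fibril-associated Col16a1 (4.02 ± 0.96) rose too, but in the length-adjusted fit their adjusted p was 0.0635 and 0.0791.

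**Figure D3:**
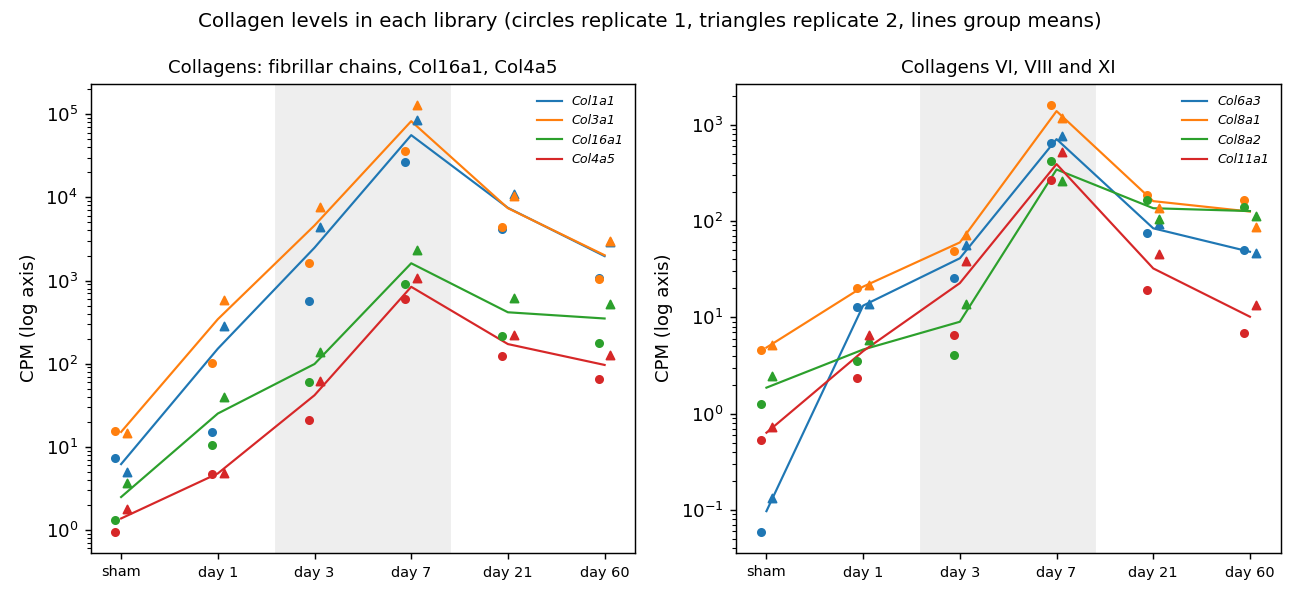
CPM on a log axis in each of the 12 libraries for 8 collagen genes, with circles for replicate 1, triangles for replicate 2 and lines through the group means; the grey band marks days 3 and 7. Each gene peaks at day 7 in its group mean, and Col1a1 and Col3a1 have their replicates far apart at day 3 (571 and 4395 CPM for Col1a1).

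Proteins that process and cross-link collagen rose with it in part. Of 18 tested genes of this list 6 rose, none fell, and the median log2 fold change was 1.47 (12 rose with the block, and 6 in the length-adjusted fit). Loxl1, which cross-links elastin fibres, was at 33.7 and 86.9 CPM at day 3 and 698 and 713 CPM at day 7 (3.55 ± 0.46 on the log2 scale, adjusted p = 0.00994). Adamts2, the protease that removes the amino-terminal propeptide of procollagen, went from 31.4 and 72.1 to 459.7 and 638 CPM (3.4 ± 0.54). Serpinh1, the collagen chaperone HSP47 of the endoplasmic reticulum, went from 608 and 641 to 3275 and 2802 CPM (2.28 ± 0.38). The days lay far apart for these 3 genes, which also passed the length-adjusted fit. Smaller rises were seen for Crtap, a partner in collagen prolyl hydroxylation (1.41 ± 0.34), and for Bmp1, which trims the carboxy-terminal propeptide (1.56 ± 0.36, adjusted p = 0.127 in the length-adjusted fit).

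Small leucine-rich proteoglycans, which bind collagen fibrils and set their width, split between members. Of 9 tested, 5 rose and 4 did not pass, with a median of 1.97. In the length-adjusted fit 4 rose, not all of them among these 5. Biglycan (Bgn) went from 336 and 628 CPM to 3069.7 and 2749 CPM, a log2 fold change of 2.59 ± 0.40 (adjusted p = 0.0124). Podocan (Podn) went from 2.78 and 5.21 to 56.8 and 59.6 CPM (3.85 ± 0.43), and fibromodulin (Fmod) from 7.34 and 12.8 to 148 and 87.0 CPM (3.53 ± 0.81). Asporin (2.19 ± 0.35) and Prelp (1.97 ± 0.42) completed the group. Fmod and Prelp had adjusted p of 0.0679 and 0.0663 in the length-adjusted fit. Decorin and lumican, both abundant at day 3, did not pass. Decorin (Dcn) read 1511 and 3436 CPM at day 3 and 1501 and 2327 CPM at day 7, ranges that overlap, with a log2 fold change of -0.37 ± 0.48 (adjusted p = 0.683). Lumican (Lum) read 455 and 843 and then 1727 and 1407 CPM, which do not overlap, with a log2 fold change of 1.27 ± 0.51 (adjusted p = 0.156). Decorin's fold change turned positive in 3 of the alternative fits, so these libraries do not settle its direction.

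Of 20 matrix glycoproteins 9 rose, none fell and the median was 2.14 (14 rose with the block, 7 in the length-adjusted fit). Nidogen 1 (Nid1), which ties laminin to collagen IV in basement membranes, went from 184 and 265 to 2202 and 2497 CPM (log2 fold change 3.39 ± 0.47, adjusted p = 0.0105). Periostin (Postn), a matricellular protein of healing tissue, went from 43.8 and 176 to 889.5 and 1333 CPM (3.34 ± 0.73). Thrombospondin 2 (Thbs2) went from 77.3 and 153 to 1095 and 1299 CPM (3.38 ± 0.54), fibrillin 1 (Fbn1), the backbone of microfibrils, from 31.6 and 79.6 to 297 and 404 CPM (2.66 ± 0.47). The microfibril protein Mfap4 had replicates far apart at day 3, with 33.1 and 189 CPM, and close together at day 7, with 1334 and 1255 CPM (3.55 ± 0.69). Fibronectin (Fn1) went from 792 and 743 to 3550.0 and 4791 CPM (2.44 ± 0.48, adjusted p = 0.0221, and 0.0558 in the length-adjusted fit). Tenascin C (Tnc), a glycoprotein of early wounds, stood apart with 75.2 and 72.6 CPM at day 3 and 61.5 and 78.7 CPM at day 7 and a log2 fold change of -0.08 ± 0.53 (adjusted p = 0.953). The days overlapped for it, and its highest group mean was at day 1 (356 CPM).

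Laminins and integrins gave the cell side of the same matrix. Of 18 tested 9 rose and none fell, with a median of 1.76 (5 rose in the length-adjusted fit). Itga11, the collagen-binding integrin alpha 11 of fibroblasts, was at 5.32 and 17.5 CPM at day 3 and 121 and 189 CPM at day 7 (3.76 ± 0.70 on the log2 scale, adjusted p = 0.0188). Lama2, the laminin chain of the astrocyte and muscle basement membrane, went from 10.6 and 29.2 to 229 and 292 CPM (3.71 ± 0.61). Lamc1 (2.50 ± 0.35), Lamc3 (2.57 ± 0.41) and Itga8 (2.97 ± 0.63) also rose, and these 5 passed the length-adjusted fit. Dag1, the laminin receptor dystroglycan of astrocyte endfeet, went from 133 and 61.1 to 473 and 285 CPM (1.97 ± 0.48, adjusted p = 0.0416, 0.0897 in the length-adjusted fit).

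Matrix proteases moved in both directions. Mmp2, gelatinase A, went from 44.4 and 232 to 1467 and 1669 CPM (log2 fold change 3.50 ± 0.67, adjusted p = 0.0200), and Mmp14, the membrane protease that activates it, from 337 and 630.1 to 2693 and 3061 CPM (2.57 ± 0.39). Adamts12 rose from a low level (2.72 and 7.30 CPM to 65.2 and 65.2 CPM, 3.68 ± 0.59). Timp4, a metalloprotease inhibitor present in sham astrocytes at 133 and 235 CPM, fell from 23.7 and 74.5 to 5.31 and 7.32 CPM (-2.96 ± 0.68). Over the whole list 3 of 22 members rose and 2 fell, and 7 rose with the block (median 1.09). Timp1, another inhibitor, did not pass, with 181 and 384 CPM at day 3, 91.1 and 129 CPM at day 7 and a log2 fold change of -1.36 ± 1.33. In the list of chondroitin sulfate proteoglycans and hyaluronan 1 of 15 rose and 2 fell, or 3 and 7 with the block and 0 and 1 in the length-adjusted fit (median -1.46). Neurocan (Ncan) went from 23.7 and 22.7 to 6.72 and 2.99 CPM (-2.27 ± 0.53) and the link protein Hapln1 from 2.78 and 6.14 to 0.537 and 0.428 CPM (-3.24 ± 0.76, adjusted p = 0.0666 in the length-adjusted fit). Cspg4 (NG2) rose from 37.8 and 22.5 to 105 and 69.4 CPM (1.54 ± 0.38, adjusted p = 0.177 in the length-adjusted fit). The hyaluronan receptor Cd44 had a log2 fold change of 0.57 ± 0.36 and did not pass (adjusted p = 0.363).

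**Figure D4:**
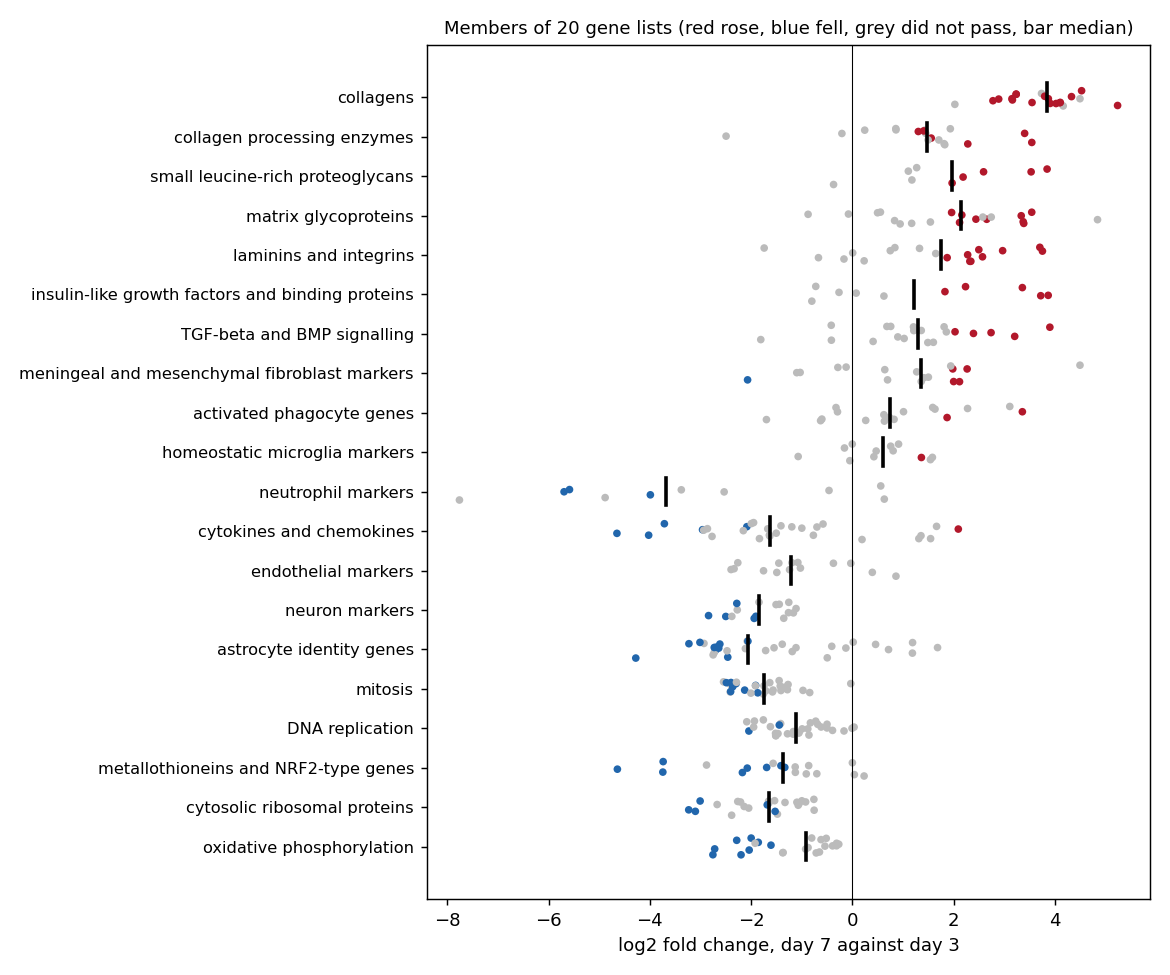
Each point is a member of 1 of 20 gene lists, placed by its log2 fold change of day 7 against day 3; red points rose, blue points fell, grey points did not pass, and the black bar is the median of the tested members. The collagen median lies at 3.84 and those of the collagen enzyme, proteoglycan, glycoprotein and laminin lists between 1.47 and 2.14, while the mitosis, astrocyte, neuron and ribosomal lists have medians between -2.07 and -1.65.

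Both insulin-like growth factors rose. Igf1 went from 44.0 and 98.5 CPM to 943 and 522 CPM (log2 fold change 3.36 ± 0.71, adjusted p = 0.0262) and Igf2 from 39.1 and 183 CPM to 1528 and 1412 CPM (3.72 ± 0.65, adjusted p = 0.0159). The annotation has a predicted gene, Gm49394, on the strand of Igf2 that overlaps it. Their binding proteins Igfbp5 (106 and 82.6 to 1790.1 and 975 CPM, 3.87 ± 0.65) and Igfbp4 (2.24 ± 0.48) and the clearance receptor Igf2r (1.83 ± 0.34) made 5 of 10 list members that rose, with none that fell and a median of 1.23. In the length-adjusted fit 4 rose, and Igfbp4 had an adjusted p of 0.0836. In sham Igf1 was at 2.69 and 1.15 CPM and Igf2 at 8.54 and 4.97 CPM, far below both times. TGF-beta is secreted in a latent complex that latent TGF-beta binding proteins anchor in the matrix, and 3 of these rose: Ltbp1 (2.39 ± 0.55), Ltbp2 (16.6 and 38.2 to 356 and 466 CPM, 3.90 ± 0.65) and Ltbp3 (3.21 ± 0.58). The ligand Tgfb3 went from 40.1 and 33.6 to 285 and 208 CPM (2.74 ± 0.38, adjusted p = 0.0102), and Tgfbi, a matrix protein induced by TGF-beta, from 245 and 586 to 1383 and 2010.2 CPM (2.03 ± 0.51). These 5 of 20 members of the TGF-beta and BMP list rose, none fell, the median was 1.29, and 11 rose with the block. In the length-adjusted fit 3 rose, and Ltbp1 and Tgfbi had adjusted p of 0.105 and 0.0681.

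Markers of fibroblasts were mixed between genes of the cell type. Of 17 members 4 rose, 1 fell and 12 did not pass, with a median of 1.36 (9 rose and 3 fell with the block, 1 rose in the length-adjusted fit). Pdgfra, a receptor of fibroblasts and oligodendrocyte precursors, went from 94.9 and 175 to 545 and 524 CPM (log2 fold change 1.99 ± 0.45, adjusted p = 0.0326). The mesenchymal transcription factors Foxc1 (147 and 116 to 722 and 421 CPM, 2.12 ± 0.50), Foxc2 (2.0 ± 0.41) and Tbx18 (17 and 25.3 to 123 and 81.6 CPM, 2.27 ± 0.43) rose. Ranbp3l fell from 10.8 and 13.8 to 2.89 and 2.98 CPM (-2.07 ± 0.53). Markers of arachnoid and dural fibroblasts had negative fold changes without passing, among them Aldh1a2, which makes retinoic acid (222 and 389 CPM and then 114 and 171 CPM, -1.10 ± 0.37, adjusted p = 0.104), and the transporter Slc6a13 (-1.03 ± 0.43, adjusted p = 0.176). With the block these 2 had adjusted p of 0.0296 and 0.0248. Members of the list thus lay on both sides of 0. In the length-adjusted fit Pdgfra, Foxc1, Foxc2 and Ranbp3l had adjusted p of 0.0735, 0.123, 0.0853 and 0.129. Of 12 pericyte and smooth muscle markers 1 rose, 2 fell and 9 did not pass, with a median of -1.18 (1 rose and 3 fell with the block, 1 and 1 in the length-adjusted fit). The replicate pairs differed in sign, with medians of -1.36 and 0.35. Pdgfrb, the receptor of pericytes and scar-forming fibroblasts, went from 175 and 255 to 1665 and 1974 CPM (3.08 ± 0.44, adjusted p = 0.0112). The contractile genes Acta2 (162 and 159 to 62.8 and 69.2 CPM, -1.28 ± 0.30) and Tagln (65.3 and 68.2 to 16.3 and 18.4 CPM, -1.94 ± 0.31) fell. Acta2 had an adjusted p of 0.0553 in the length-adjusted fit.

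Genes of cell division fell in part. Of 30 mitosis genes 8 fell and none rose, all 30 had negative fold changes, and the median was -1.75 (16 fell with the block, 6 in the length-adjusted fit, where the median was -1.61). Many of these genes share promoter elements, the cell cycle homology region (CHR, TTTGAA) and CCAAT boxes, through which the DREAM and MuvB complexes and NF-Y are known to time their expression to mitosis. The 250 bases upstream of the RefSeq start (GRCm38.p6, printed 5′ to 3′ on the gene's strand, with CHR and CCAAT matches on either strand in capitals) are shown for 2 called members that hold both elements. Ube2c lies at chr2:164769679-164769928 on the plus strand and Cdc20 at chr4:118437344-118437593 on the minus strand:
Ube2c: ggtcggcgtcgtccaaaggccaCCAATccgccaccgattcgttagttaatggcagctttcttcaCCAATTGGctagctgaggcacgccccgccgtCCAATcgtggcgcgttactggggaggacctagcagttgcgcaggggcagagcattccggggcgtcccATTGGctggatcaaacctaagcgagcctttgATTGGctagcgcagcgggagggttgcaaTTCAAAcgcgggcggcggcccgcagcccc
Cdc20: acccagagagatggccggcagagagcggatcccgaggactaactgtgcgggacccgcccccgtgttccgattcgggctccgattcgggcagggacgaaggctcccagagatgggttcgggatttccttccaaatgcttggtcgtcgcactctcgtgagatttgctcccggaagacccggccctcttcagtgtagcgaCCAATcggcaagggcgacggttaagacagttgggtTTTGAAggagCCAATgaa
Ube2c holds 1 CHR and 6 CCAAT matches and Cdc20 holds 1 and 2. Of 26 windows of 25 genes of the mitosis list 34.6% hold a CHR, 73.1% a CCAAT and 30.8% both, and of 14929 windows of the genes tested 10.9%, 34.6% and 3.97% do. A pair of the CCAAT matches of Ube2c shares letters on opposite strands, and a match describes the sequence only. Cenpf, also called, holds 0 CHR and 2 CCAAT matches.

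Ube2c, the ubiquitin-conjugating enzyme of the anaphase-promoting complex, was at 56.5 and 108 CPM at day 3 and 14.0 and 15.3 CPM at day 7 (-2.49 ± 0.47 on the log2 scale, adjusted p = 0.0196). Cdc20, the activator of that complex, went from 67.5 and 140.4 to 17.8 and 21.7 CPM (-2.40 ± 0.44, adjusted p = 0.0188). In sham Ube2c read 4.54 and 6.22 CPM and Cdc20 2.87 and 5.19 CPM, below both days. Survivin (Birc5) went from 65.5 and 82.0 to 13.2 and 15.5 CPM (-2.36 ± 0.47), the kinetochore genes Cenpe from 27.9 and 58.2 to 7.99 and 8.28 CPM (-2.40 ± 0.52) and Cenpf from 24.0 and 54.3 to 8.26 and 7.68 CPM (-2.3 ± 0.46). These 5 genes had little spread at day 7 and passed the length-adjusted fit. The most used marker of cycling cells, Mki67, read 35.7 and 38.5 CPM at day 3 and 25.7 and 15.8 CPM at day 7 and did not pass (log2 fold change -0.84 ± 0.54, adjusted p = 0.367). Cdk1, the kinase that drives entry into mitosis, did not pass either (36.0 and 88.5 and then 24.4 and 27.3 CPM, -1.27 ± 0.67, adjusted p = 0.273). In the DNA replication list 2 of 30 fell and none rose, with a median of -1.11 (8 fell with the block). These were the sliding clamp Pcna (43.5 and 53.5 to 11.4 and 12.1 CPM, -2.04 ± 0.38, adjusted p = 0.0589 in the length-adjusted fit) and thymidylate synthase Tyms (27.5 and 46.2 to 13.4 and 13.8 CPM, -1.44 ± 0.36). The cell cycle inhibitor Cdkn1a read 369 and 89.9 and then 86.0 and 54.7 CPM and did not pass (-1.71 ± 0.75, adjusted p = 0.193, 0.0385 with the block). Ube2c and Cdc20 each overlap a gene on the opposite strand, and the strand setting of the counting is not given in the sources used here, so reads of the pairs may be shared.

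Astrocyte genes fell in part. Of 30 identity genes 10 fell, none rose and 24 had a negative fold change, with a median of -2.07 (18 fell and 2 rose with the block, 9 fell in the length-adjusted fit). Over the same step the summed share of collagens grew, and its part in these falls was not tested. Gfap (ENSMUSG00000020932.14, chr11:102887336-102900912), the intermediate filament of reactive astrocytes, was at 1469 and 4143 CPM at day 3 and 556 and 359 CPM at day 7, with a log2 fold change of -2.62 ± 0.65 (adjusted p = 0.0426). At day 7 it was still above the sham level of 161 and 175 CPM. Aldoc, the brain form of aldolase, fell from 796 and 2698 to 216 and 218 CPM (-3.01 ± 0.73, adjusted p = 0.0402, 0.0508 in the length-adjusted fit), and Aqp4, the water channel of the endfeet, from 47.3 and 61.2 to 12.1 and 4.77 CPM (-2.70 ± 0.61, adjusted p = 0.0541 in the length-adjusted fit). Ntsr2 (49.1 and 91.6 to 12.4 and 8.95 CPM, -2.73 ± 0.55), the tight junction gene Cldn10 (-3.23 ± 0.67) and the cation pump Atp13a4 (9.18 and 12.8 to 0.806 and 0.391 CPM, -4.28 ± 0.85) fell too. For these 5 genes the day 7 level was below sham in both libraries.

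The glutamate transporters and Aldh1l1 had negative fold changes that did not pass. Slc1a2 (GLT-1) read 205 and 234 CPM at day 3 and 72.4 and 29.1 CPM at day 7 (-2.11 ± 0.76 on the log2 scale, adjusted p = 0.121, 0.0433 with the block). Slc1a3 (GLAST) read 236 and 261 and 105 and 85.4 CPM (-1.38 ± 0.45, adjusted p = 0.0914, 0.0407 with the block). Aldh1l1, a pan-astrocyte enzyme of folate metabolism, read 77.3 and 332 and 23.8 and 29.9 CPM (-2.93 ± 0.86, adjusted p = 0.0697, 0.0116 with the block). Gja1, the gap junction protein connexin 43, went the other way, from 262 and 232 to 702 and 422 CPM, and did not pass (1.19 ± 0.51, adjusted p = 0.185, 0.0426 with the block). In the list of ion, water and transmitter handling 4 of 20 fell and 1 rose (Dag1, above), or 9 and 2 with the block and 4 and 0 in the length-adjusted fit. Those that fell included Aqp4, the potassium channel Kcnj16 (-3.61 ± 0.67) and the glycerol channel Aqp9 (-4.06 ± 0.78). Of 20 Notch and neural stem cell genes 3 fell and 1 rose, or 5 and 2 with the block. Sox2 fell from 19.9 and 29.1 to 6.85 and 2.46 CPM (-2.42 ± 0.62, adjusted p = 0.0808 in the length-adjusted fit), the Notch target Hes5 from 11.9 and 10.8 to 1.28 and 0.335 CPM (-3.95 ± 0.76), and nestin (Nes) from 155 and 88.2 to 33.8 and 27.2 CPM (-1.99 ± 0.45). Notch2, a receptor also of mesenchymal cells, rose from 14.6 and 16.4 to 112 and 109.6 CPM (2.84 ± 0.37, adjusted p = 0.00994). Vimentin (Vim) read 1269.9 and 1238 CPM and then 667 and 706 CPM and did not pass (-0.87 ± 0.31, adjusted p = 0.123).

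Genes grouped in the literature by the kind of astrocyte reactivity had members on both sides of 0. Of 13 pan-reactive genes 3 fell and 1 rose. Besides Gfap these were Lcn2, the iron-carrier protein lipocalin 2 (45.4 and 90.7 to 4.97 and 7.36 CPM, log2 fold change -3.46 ± 0.47, adjusted p = 0.0102), Serpina3n (28.7 and 117 to 8.13 and 5.56 CPM, -3.42 ± 0.72) and, rising, the receptor S1pr3 (58.1 and 33.9 to 288 and 154 CPM, 2.26 ± 0.49, adjusted p = 0.0611 in the length-adjusted fit). Of 12 genes associated with the A1 label 3 rose: the complement C1 inhibitor Serping1 (229 and 473 to 1093 and 1361 CPM, 1.81 ± 0.42), the class Ib antigen H2-T23 (1.30 ± 0.33) and the elastin-binding Fbln5 (1.96 ± 0.31). C3, the central complement protein, read 12.3 and 2.32 CPM and then 26.0 and 38.4 CPM and did not pass (2.15 ± 0.93, adjusted p = 0.188). Of 12 genes with the A2 label 2 fell, S100a10 (80.4 and 78.3 to 17.4 and 14.3 CPM, -2.32 ± 0.41, adjusted p = 0.174 in the length-adjusted fit) and Tm4sf1 (646 and 393 to 130.4 and 178 CPM, -1.75 ± 0.38). With the block 5 pan-reactive genes fell and 2 rose, 5 A1 genes rose and 1 fell, and 4 A2 genes fell and 1 rose. The medians of the 3 lists were -0.70, 0.81 and -0.84.

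Markers of neutrophils, which arrive first, had a median of -3.68, with 3 of 10 that fell (5 with the block, 0 in the length-adjusted fit) and none that rose. S100a8 was at 34.7 and 40.1 CPM at day 3 and 0.873 and 0.605 CPM at day 7 (-5.69 ± 0.95 on the log2 scale, adjusted p = 0.0136) and its partner S100a9 at 30.8 and 38.0 and 0.537 and 0.846 CPM (-5.59 ± 0.90). Together they form calprotectin, and their messages are short (486 and 519 bases). In the length-adjusted fit the log2 fold changes were -3.4 and -3.45, with adjusted p of 0.0858 and 0.0750. The decoy receptor Il1r2 fell from 10.8 and 6.70 to 0.202 and 0.809 CPM (-3.99 ± 0.86, adjusted p = 0.0594 in the length-adjusted fit). The neutrophil markers Csf3r and Mmp8 had positive fold changes that did not pass (0.56 ± 0.48 and 0.63 ± 1.04).

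Of 14 macrophage markers 2 fell and 1 rose, and 0 passed in the length-adjusted fit. Arg1, arginase 1 of early wound macrophages, was at 121 and 108 CPM at day 3 and 1.01 and 2.63 CPM at day 7 (-5.93 ± 1.33 on the log2 scale, adjusted p = 0.0319, 0.0533 in the length-adjusted fit). The chemokine Pf4 fell from 95.4 and 63.2 to 8.13 and 6.15 CPM (-3.48 ± 0.39, adjusted p = 0.00811, 0.0768 in the length-adjusted fit). The member that rose was Fn1, described above as a matrix gene. Homeostatic microglia markers had a median of 0.62, and 1 of 12 rose (3 with the block, 0 in the length-adjusted fit). Csf1r, the receptor microglia need to survive, read 438 and 389 and 800.1 and 599 CPM (0.76 ± 0.54, adjusted p = 0.422).

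Activated phagocyte genes held several percent of the counts at both times. Of 17 members 2 rose and none fell (5 and 1 with the block), and the median was 0.74. They were Igf1, given above, and Axl, a receptor for dying cells (169 and 146 to 571 and 582 CPM, 1.87 ± 0.39, adjusted p = 0.0260, 0.0553 in the length-adjusted fit). Its ligand Gas6 rose as well (200.2 and 207 to 499 and 533 CPM, 1.34 ± 0.33, adjusted p = 0.0755 in the length-adjusted fit). Osteopontin (Spp1) read 12064 and 16448 CPM at day 3 and 29070.5 and 28423 CPM at day 7 and did not pass (1.01 ± 0.46, adjusted p = 0.205). Cathepsin D (Ctsd) read 12573 and 10246 and then 22131 and 18300.0 CPM (0.83 ± 0.37, adjusted p = 0.207). Apoe read 10818 and 3904 and 16452 and 8053 CPM, which overlap (0.74 ± 0.67, adjusted p = 0.542). These 3 had higher group means at day 7, in contrast to S100a8 and S100a9, which were under 1 CPM there.

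Inflammatory mediators fell in part. Of 28 cytokines and chemokines 5 fell, 1 rose and the median was -1.63 (11 fell and 4 rose with the block, 1 fell and 1 rose in the length-adjusted fit, where the median was -0.52). Il1b, the early cytokine interleukin 1 beta, went from 353 and 77.3 CPM to 34.6 and 20.8 CPM (log2 fold change -2.96 ± 0.68, adjusted p = 0.0338, 0.122 in the length-adjusted fit). Cxcl2, which draws neutrophils, went from 226 and 59.2 to 14.9 and 6.95 CPM (-3.71 ± 0.74), and Cxcl5, another such chemokine, from 6.26 and 3.62 to 0.202 and 0.353 CPM (-4.02 ± 0.55, adjusted p = 0.0225 in the length-adjusted fit). Csf3 (the growth factor G-CSF), which releases neutrophils from the marrow, went from 13 and 1.84 to 0.202 and 0.335 CPM (-4.65 ± 1.16). Cxcl2 and Csf3 had adjusted p of 0.0558 and 0.0844 in the length-adjusted fit. In these genes day 3 replicate 1 was the highest of the 4 libraries and day 7 lay below both day 3 libraries. Cx3cl1, the ligand of the microglial receptor, rose from 89.5 and 70.3 to 439 and 243 CPM (2.09 ± 0.53, adjusted p = 0.0450, 0.139 in the length-adjusted fit). The monocyte chemokine Ccl2 read 66.5 and 31.3 and then 16.7 and 14.0 CPM and did not pass (-1.67 ± 0.52, adjusted p = 0.0866, 0.0250 with the block). Il6 read 29.1 and 4.28 and 6.05 and 5.67 CPM, which overlap (-1.5 ± 0.86, adjusted p = 0.313).

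Complement, antigen presentation and interferon genes had small positive medians of 0.55, 0.30 and 0.87. In the complement list 2 of 19 rose (4 with the block), Serping1 and the classical pathway protease C2 (14.1 and 30.1 to 111 and 168 CPM, log2 fold change 2.65 ± 0.58, adjusted p = 0.0301), and properdin (Cfp) fell (55.5 and 56.6 to 17.9 and 18.9 CPM, -1.60 ± 0.35). Of 18 genes of antigen presentation 3 rose, H2-T23 and 2 of the machinery that loads peptides on class I molecules, the transporter Tap1 (33.5 and 35.4 to 100 and 124 CPM, 1.70 ± 0.32) and tapasin (Tapbp, 386 and 279 to 1059 and 1015 CPM, 1.64 ± 0.36, adjusted p = 0.0887 in the length-adjusted fit). Of 25 interferon-stimulated genes 1 rose at the threshold and 9 with the block (2 in the length-adjusted fit). Stat3, a transcription factor that drives astrocyte reactivity, read 274 and 281 CPM at day 3 and 427 and 634 CPM at day 7 and did not pass (0.93 ± 0.38, adjusted p = 0.165, 0.0414 with the block).

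Metallothioneins and part of the genes of the oxidative stress factor NRF2 fell. Of 18 tested 8 fell and none rose, with a median of -1.37 (14 fell with the block, 6 in the length-adjusted fit). Metallothioneins are small proteins that bind zinc and copper, and Mt1 and Mt2 are induced through metal response elements, whose core reads TGCACNC or TGCGCNC and is bound by MTF1. The 250 bases upstream of their RefSeq starts (GRCm38.p6, plus strand, 5′ to 3′, core matches on either strand in capitals) are shown because the pair moved together. Mt1 lies at chr8:94178839-94179088 and Mt2 at chr8:94172368-94172617:
Mt1: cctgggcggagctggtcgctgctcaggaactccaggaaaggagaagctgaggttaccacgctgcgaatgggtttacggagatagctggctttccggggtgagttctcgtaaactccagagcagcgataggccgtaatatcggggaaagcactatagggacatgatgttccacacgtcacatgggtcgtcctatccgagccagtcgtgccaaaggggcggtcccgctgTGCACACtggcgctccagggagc
Mt2: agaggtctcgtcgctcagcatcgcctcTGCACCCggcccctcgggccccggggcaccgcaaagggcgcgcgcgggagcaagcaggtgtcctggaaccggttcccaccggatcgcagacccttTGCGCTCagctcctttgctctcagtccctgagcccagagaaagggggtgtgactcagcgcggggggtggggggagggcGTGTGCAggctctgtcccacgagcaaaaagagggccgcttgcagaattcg
The Mt1 window holds 1 match and the Mt2 window 3, and a window of Mt3 holds 0. Matches outside these windows, also those downstream of the RefSeq start, were not counted, so these are not the numbers of elements of the whole promoters. At least 1 match is found in 28.5% of the windows of tested genes and at least 3 in 2.0%.

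Mt1 was at 429 and 423 CPM at day 3 and 32.0 and 31.7 CPM at day 7 (-3.74 ± 0.47 on the log2 scale, adjusted p = 0.00985), and Mt2 at 100.4 and 104 and 5.64 and 9.59 CPM (-3.74 ± 0.57). Replicates of a day nearly coincided for both. Mt3, the brain form, which is induced by metals far less, went from 123 and 189 to 8.06 and 4.51 CPM (-4.64 ± 0.86). These messages are short, and the length-adjusted log2 fold changes were -3.04, -2.01 and -3.03, all still past the threshold. Sham astrocytes held 764 and 959 CPM of Mt1, more than either day. Ferritin heavy chain (Fth1), which stores iron, went from 9624 and 17032 to 2765 and 3153 CPM (-2.17 ± 0.51). Slc7a11, the cystine importer xCT, went from 151 and 159 to 40.8 and 32.8 CPM (-2.08 ± 0.48), and heme oxygenase (Hmox1) from 245 and 316 to 119.9 and 91.2 CPM (-1.41 ± 0.32, adjusted p = 0.0336, 0.10 in the length-adjusted fit). Slc7a11 has a long message (9223 bases) and passed that fit, with a log2 fold change of -2.0.

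**Figure D5:**
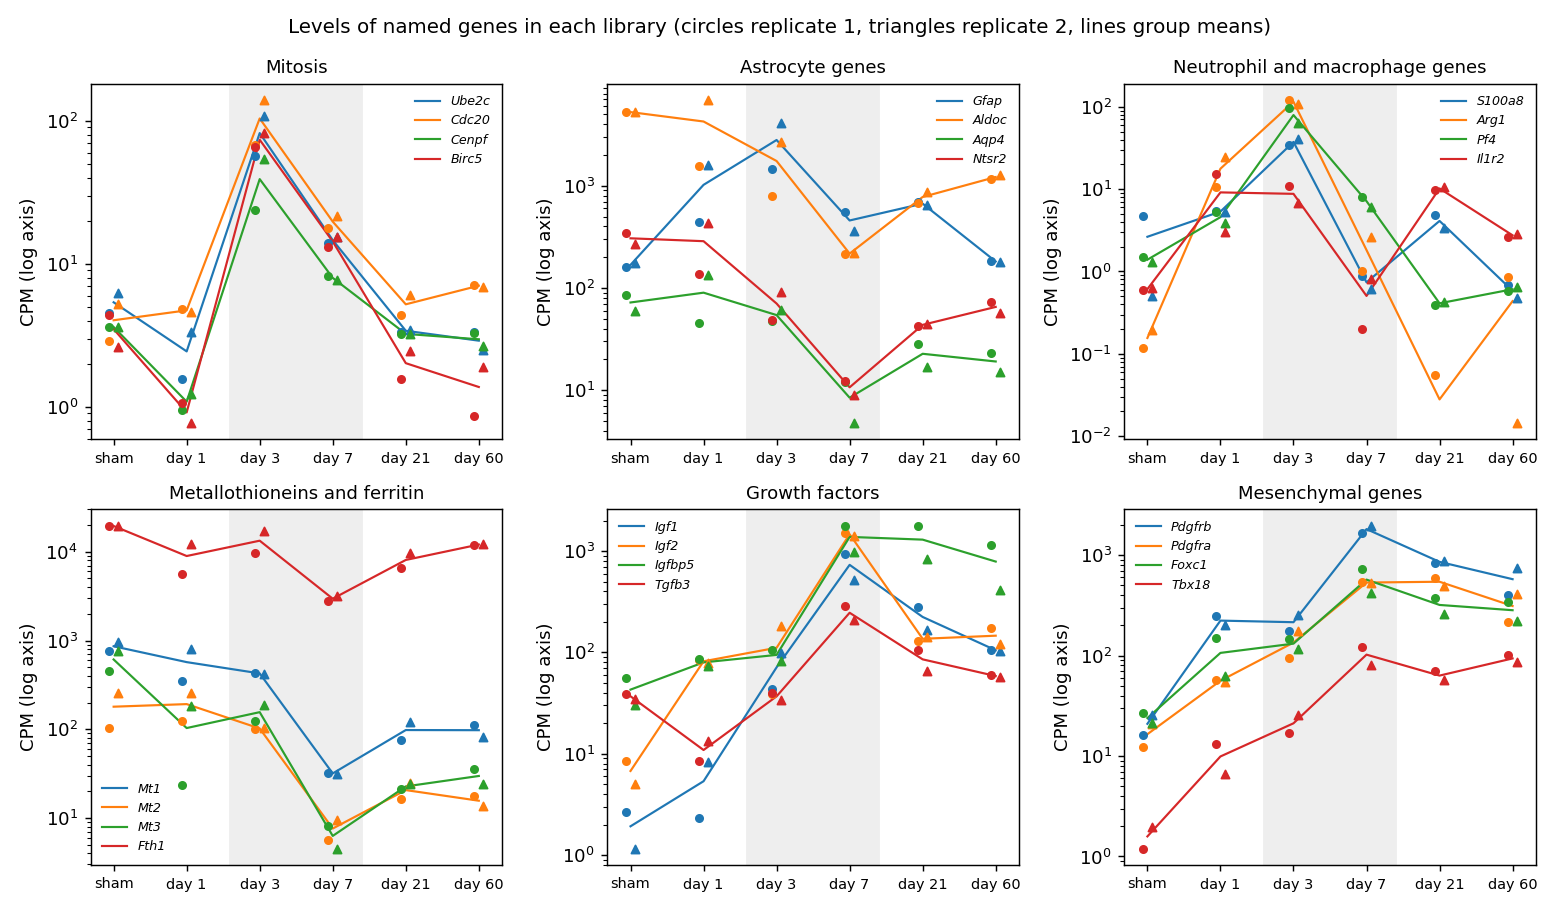
CPM on a log axis in each of the 12 libraries for 24 named genes in 6 panels, with circles for replicate 1, triangles for replicate 2, lines through the group means and a grey band over days 3 and 7; a value of 0 (Arg1, day 21 replicate 2) is not drawn. In group means the 4 mitosis genes peak at day 3, Aldoc, Aqp4, Ntsr2 and the metallothioneins are lowest at day 7, and Igf1, Igf2, Tgfb3 and Pdgfrb peak at day 7.

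Groups with many short messages also fell in part, and their calls were lost in the length-adjusted fit. Of 23 cytosolic ribosomal protein genes 5 fell, all 23 had negative fold changes and the median was -1.65 (19 fell with the block, and 0 in the length-adjusted fit, with a median of -1.07). Rps14 went from 201 and 188 to 57.4 and 64.1 CPM (-1.68 ± 0.43) and Rpl13 from 39.0 and 41.4 to 2.22 and 7.63 CPM (-3.01 ± 0.62). Ribosomal protein genes have many near-identical pseudogenes and how reads with several matches were counted is not given in the sources used here, so these levels are uncertain. Of 23 oxidative phosphorylation genes 8 fell and the median was -0.92 (0 fell in the length-adjusted fit, with a median of -0.46). Cox6c, a subunit of cytochrome c oxidase with a message of 738 bases, went from 237 and 189.8 to 35.1 and 29.7 CPM (-2.72 ± 0.53, and -1.17 after adjustment), and Ndufa4 from 152 and 232 to 34.9 and 58.5 CPM (-2.04 ± 0.49, and -0.09 after adjustment). In the list of annexins and S100 proteins 4 of 17 fell, all of them S100 genes with short messages: S100a1 (-2.24 ± 0.45), S100a6 (-2.3 ± 0.39), S100a10 and S100a13 (-2.65 ± 0.45), and none passed after adjustment (7 fell with the block). Heat shock genes, which are not short as a group, gave 3 of 14 that fell, Hspe1 (-2.33 ± 0.56), Hspd1 (-1.24 ± 0.31) and Hsp90aa1 (-1.48 ± 0.35), and 0 after adjustment (5 with the block). Unadjusted p under 0.05 in the main fit was reached by 18 ribosomal, 11 oxidative phosphorylation, 8 annexin and S100 and 6 heat shock genes with negative fold changes, against 12.8% of all genes tested.

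Sterol synthesis genes have a median length of 3027 bases, near that of all genes (3098). Of 21 cholesterol synthesis genes 3 fell, none rose, and the median was -0.68 (8 fell with the block). Squalene epoxidase (Sqle) went from 40.4 and 52.5 to 12.8 and 10.7 CPM (log2 fold change -1.99 ± 0.32, adjusted p = 0.0133) and Hsd17b7 from 12.1 and 14.4 to 5.58 and 3.33 CPM (-1.59 ± 0.38). Both passed the length-adjusted fit as well. Lcat, which esterifies cholesterol on lipoproteins, fell from 14.5 and 41.3 to 1.34 and 1.70 CPM (-4.18 ± 0.78). Of 25 genes of glycolysis and hypoxia 2 fell (6 with the block), the vasoactive peptide adrenomedullin (Adm, 59.9 and 29.5 to 6.99 and 4.76 CPM, -2.93 ± 0.61) and Ankrd37 (-3.22 ± 0.76), and neither passed after adjustment (adjusted p = 0.0759 and 0.155).

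Neuron markers, which the sorted cells of sham mice also held, fell in part. Of 15 tested 5 fell (8 with the block), all 15 had negative fold changes and the median was -1.84 (3 fell in the length-adjusted fit). Snap25 went from 105 and 136 to 25.1 and 17.7 CPM (log2 fold change -2.50 ± 0.34, adjusted p = 0.0102), against 1402 and 1138 CPM in sham, and Stmn2 from 24.3 and 26.7 to 4.03 and 3.13 CPM (-2.84 ± 0.45). Summed, the neuron markers took 0.994% and 1.18% of the counts in sham, 0.0659% and 0.132% at day 3 and 0.0328% and 0.0175% at day 7. None of 12 oligodendrocyte markers and none of 14 endothelial markers passed in the main fit, with medians of -1.14 and -1.22. In the replicate 1 and replicate 2 pairs the medians were -0.18 and -1.46 for oligodendrocyte markers. For endothelial markers they were -2.10 and 0.32, so the pairs differed in sign. At an unadjusted p under 0.05, 3 oligodendrocyte and 5 endothelial markers had negative fold changes. In DESeq2's Wald test 3 and 5 passed, with the block 3 and 4, and in the length-adjusted fit 1 and 0. Of all genes tested, 12.8% had such an unadjusted p and a negative fold change. In the Wald test 9.43% fell, with the block 8.97% and in the length-adjusted fit 1.58%. Day 3 replicate 1 held more of the endothelial genes than the other 3 libraries: Cldn5, the tight junction protein of brain endothelium, read 1054 and 127 CPM at day 3 and 144 and 80.1 CPM at day 7 (-2.40 ± 0.94, adjusted p = 0.152, 0.0282 with the block). Apln, a peptide of sprouting vessels, fell from 183 and 52.4 to 8.26 and 3.53 CPM (-4.33 ± 0.87, adjusted p = 0.0236), and Ctla2a from 709 and 230.1 to 16.1 and 32.8 CPM (-4.26 ± 0.69). Both were higher in day 3 replicate 1 than in replicate 2, as were the endothelial markers, which took 0.512% and 0.137% of the counts at day 3 and 0.0806% and 0.0935% at day 7, and the part of these cells in the 2 falls was not tested.

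Signals that guide cells and axons rose in part. Of 23 axon guidance genes 4 rose and none fell (median 1.13, 9 rose with the block, 3 in the length-adjusted fit), namely the Slit receptors Robo1 (17 and 15.8 to 76.2 and 77 CPM, log2 fold change 2.23 ± 0.33, adjusted p = 0.0115) and Robo2 (2.99 ± 0.59), the semaphorin receptor Nrp1 (205 and 198 to 595 and 613 CPM, 1.59 ± 0.30) and Efnb1 (1.56 ± 0.39, adjusted p = 0.173 in the length-adjusted fit). Of 21 Wnt genes 5 rose and 1 fell (median 1.11, 10 rose and 2 fell with the block, 2 and 1 in the length-adjusted fit). The receptors Fzd1 (18.3 and 18.4 to 206 and 116 CPM, 3.13 ± 0.53) and Fzd2 (1.96 ± 0.50), the ligand Wnt9a (4.62 and 5.65 to 65.8 and 38.6 CPM, 3.34 ± 0.49) and Dkk3 (2.12 ± 0.52) were among those that rose. Fzd2 and Dkk3 had adjusted p of 0.158 and 0.0755 in the length-adjusted fit. Wnt7b, a ligand that neural cells send to brain vessels, fell from 17.3 and 24.7 to 5.10 and 1.83 CPM (-2.63 ± 0.61). In a list drawn up for secreted factors that act on synapses, which also holds a receptor, 4 of 15 members rose, or 8 with the block. The 4 were Thbs2 and Gas6 given above, the glypican Gpc6 (10.9 and 21.6 to 160.3 and 124 CPM, 3.13 ± 0.46) and the engulfment receptor Megf10 (4.87 and 11.1 to 64.3 and 63.0 CPM, 2.98 ± 0.45).

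The largest single changes included genes of no list. Phex (ENSMUSG00000057457.11, chrX:157162075-157415312), a protease of bone-forming cells, was at 0 and 0.859 CPM at day 3 and 54.3 and 47.4 CPM at day 7 (6.63 ± 1.09 on the log2 scale, adjusted p = 0.0133). Gal, the neuropeptide galanin (chr19:3409915-3414544), was at 0.127 and 0.621 CPM and then 36.3 and 47.2 CPM (6.63 ± 1.14, adjusted p = 0.0174). Its message is short (788 bases), and the length-adjusted log2 fold change was 7.74. Others that rose from a low day 3 level were the protease-like Prss35 (5.44 ± 1.25), the ephrin receptor Epha3 (0.380 and 7.22 to 87.5 and 89.0 CPM, 4.49 ± 1.01), the carboxypeptidases Cpz (2.34 and 28.8 to 291 and 375 CPM, 4.41 ± 0.97) and Cpxm2 (4.11 ± 0.62), the transcription factor Ebf2 (1.58 and 3.54 to 49.0 and 55.9 CPM, 4.33 ± 0.47), the potassium channel Kcnj15 (4.32 ± 1.05) and the hedgehog co-receptor Boc (8.35 and 23.5 to 236 and 299.8 CPM, 4.07 ± 0.66). Epha3 and Kcnj15 had adjusted p of 0.0553 and 0.0663 in the length-adjusted fit.

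Among the falls Crabp1 (ENSMUSG00000032291.8, chr9:54764748-54773110), a retinoic acid binding protein, had the largest fold change of the named genes. It read 31.1 and 32.3 CPM at day 3 and 0.269 and 0.0558 CPM at day 7 (-8.09 ± 0.78 on the log2 scale, adjusted p = 0.00788), and it passed in 1 of the 2 fits that leave out a day 7 library. Mesothelin (Msln), a surface protein of mesothelium, read 28.2 and 19.1 and then 0.537 and 0.642 CPM (-5.30 ± 0.63). Fabp7, the fatty acid binding protein of radial glia and astrocytes, went from 219 and 632 to 12.8 and 9.44 CPM (-5.26 ± 0.90, and -3.73 in the length-adjusted fit, where it passed). Car8 (-4.45 ± 0.78), Gng13 (13.8 and 13.3 to 0.269 and 0.828 CPM, -4.49 ± 0.97), the protease inhibitor Slpi (-4.99 ± 1.14) and Nxpe5 (20.9 and 15.5 to 1.01 and 0.735 CPM, -4.40 ± 0.95) fell as well. Slpi had an adjusted p of 0.0980 in the length-adjusted fit. Sham levels differed among these genes: Crabp1 and Msln were at 1.19 and 1.11 and 2.03 and 1.49 CPM, Fabp7 at 136 and 108 CPM and Gng13 at 87.0 and 116 CPM.

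The sham, day 1 and day 60 libraries show where the 983 genes stood before and after this step. They are not independent of the calls, as they entered the same fit and its estimate of the spread. Of the 479 genes that rose, 172 (35.9%) were already above sham at day 1 and 62 (12.9%) below, in the same fit and at the same threshold, against 16.7% and 13.9% of all genes tested. At day 60, 342 (71.4%) were above sham and 11 (2.3%) below, against 16.8% and 14.8% of all genes. Of the 504 that fell, 66 (13.1%) were above sham at day 1 and 207 (41.1%) below, and at day 60 these were 35 (6.94%) and 331 (65.7%). All contrasts share each gene's estimate of the spread, so genes called in one are more readily called in another, in either direction. Single libraries moved some of these shares by over 1.5 times. Without sham replicate 1, 22.3% of the genes that rose stood above sham at day 1 and 21.8% of those that fell stood below it, against 7.75% and 7.19% of all genes tested. Without day 1 replicate 1 these were 23.8% and 15.9%, against 7.62% and 4.87%. Without sham replicate 2 the share of the genes that fell was 25.4%, against 7.32%. Without day 60 replicate 2, 36.3% of the genes that fell stood below sham at day 60, against 5.99% of all genes tested. The highest group mean of the genes that rose was at day 7 in 381, at day 21 in 54, at day 60 in 34 and in sham in 10. Of those that fell 291 were highest in sham, 130 at day 3 and 68 at day 1. The selection shapes these counts, since a gene that rose cannot peak at day 3, nor one that fell at day 7. Sham was also the most frequent peak among all 15635 genes tested, with 4824 genes. Day 7 held the peak of 3165 genes, day 1 that of 2837 and day 3 that of 1947. Matrix genes such as Bgn (709 and 829 CPM at day 60 against 7.70 and 8.91 in sham) and Mmp14 (1186 and 1291 against 20.4 and 21.5) rose and stood above sham at day 60. Snap25 (149 and 170.0 against 1402 and 1138) and Mt1 (113 and 82.7 against 764 and 959) fell and stood below it. Not all falls did so. Among the mitosis genes, day 60 found Ube2c at 3.32 and 2.48 CPM at day 60, Cdc20 at 7.16 and 6.90 CPM and neither past the threshold against sham (adjusted p = 0.156 and 0.187).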

How the data were processed

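The deposited table holds the authors' raw counts per gene for 12 libraries of sorted mouse astrocytes. Bowtie2 2.3.4.2, HTSeq 0.6.1 and mm10 are named per the submitters' processing notes, without roles. The annotation, strand setting and handling of reads with several matches are not given in the sources used here. Of 215 named genes, 5 (Igf2, C2, Ctla2a, Ctsd and Tapbp) overlap another gene on the same strand. Another gene on the opposite strand overlaps 28 of them, so reads of such genes may be shared. Replicate 2 was deeper in every group. From the counts, genes passing filterByExpr (minimum count 10) were scaled with TMM and fitted with edgeR 4.0.16 (R 4.3.3), with a quasi-likelihood test on all 12 libraries and 6 residual degrees of freedom. P-values were adjusted by Benjamini-Hochberg over 15635 genes, with a threshold of 0.05. CPM carry no prior count, and SE is the standard error of the log2 fold change. DESeq2 1.42.0 and limma 3.58.1 served as alternatives. The scripts were tested on simulated data. Gene positions and transcript lengths come from GENCODE M21 and promoters from RefSeq.

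Replicate numbers come from the labels, which do not say what they share. Same-numbered libraries deviated together in 15 of 15 pairs of groups (correlations 0.319 to 0.713, 0.439 for days 3 and 7), so a fit with the number as a block is given as an alternative. Named genes are the 15 largest changes each way among genes called with at least 10 CPM, up to 5 called members of each of 52 lists (the 3 most abundant members where fewer than 2 were called), 25 landmark genes, and list members without a call given as values; a few of these genes are not reported here. The members and lists were chosen with earlier results of these data known. The length and GC offsets, and the alternatives for days 1 and 60 against sham, were added after seeing the data.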

Additional observations from a re-analysis of the deposited data

How the results depend on the processing

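All 983 calls kept their direction in every alternative except the fits with length and GC offsets, where 970 did without and 971 with the replicate block. The count of calls moved far more. DESeq2's Wald test called 2618 genes (1143 rose, 1475 fell) and limma voom 1535 (815 rose). The replicate block called 2853 (1450 rose, 1403 fell), the offsets 492 (245 rose, 247 fell) and the offsets with the replicate block 1973 (1019 rose, 954 fell). The fit of the 4 libraries alone called 0 (0 rose, 0 fell), with 3243 at an unadjusted p under 0.05 and 2 residual degrees of freedom. DESeq2 size factors (1012), no filter on low counts (973) and thinning of replicate 2 to the depth of replicate 1 (960) stayed within 1.5 times of the main count. Leaving out each library in turn gave 0 to 1412 calls, 0 to 621 that rose and 0 to 791 that fell, and a day with 1 library was then assumed to vary like the other groups. For day 1 against sham the count ran from 1954 to 5037 (main 4774) and for day 60 against sham from 2654 to 5317 (main 4929). In every fit that leaves out 1 library, the share of genes that rose and stood above sham at day 60 was 57.6% to 69.7%, and that of genes that fell and stood below it 36.3% to 70.2%. Of the genes named in the text 3 changed sign, and none of these had been called. Leaving out single libraries, the log2 fold change of Il6 ran from -2.33 to 0.40 (positive without day 3 replicate 1), that of Tnc from -0.26 to 0.090 (positive without day 7 replicate 1) and that of Dcn from -0.89 to 0.33 (positive without day 3 replicate 2). Dcn was also at 0.22 with the offsets and at 0.24 with the offsets and the replicate block. The cause was not tested. Each group had only 2 libraries, and replicate 1 was shallow throughout.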

Other observations

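Later times gave other levels for some of these genes, given here as values with no test. Galanin (Gal) read 0 and 0.192 CPM in sham, 0.0560 and 0 CPM at day 21 and 0 and 0 CPM at day 60, against 36.3 and 47.2 CPM at day 7. Nxpe5 read 1.01 and 0.448 CPM at day 21 and 0.630 and 0.471 CPM at day 60, against 1.01 and 0.735 CPM at day 7. The chemokine Cxcl5 read 6.00 and 3.33 CPM at day 1 and 486 and 358 CPM at day 21. Lcn2 read 284 and 331 CPM at day 1 and 1354 and 1498 CPM at day 60. Complement C3 read 0.538 and 0.462 CPM in sham, 3611 and 6280.0 CPM at day 21 and 3005 and 7265 CPM at day 60.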
